A study of Mus musculus with 11 samples.

Results

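The regions described here are stretches of open chromatin that lay away from the ends of genes in mouse alveolar macrophages, were called in healthy lung and 15 days after tumour cells were given, and were not called at 30 days. They were selected on the peak calls themselves. The peaks of all 3 lists were merged where they shared at least 1 bp, and a region was kept when it held a naive and a day 15 peak, no day 30 peak, and lay more than 1000 bp from both ends of every RefSeq gene. Of 16069 merged regions, 2952 met this rule. The assay was ATAC-seq, which marks open DNA by letting a transposase cut it and attach adapters for sequencing. The tissue-resident alveolar macrophages were sorted from lungs of C57BL/6 mice. The naive group (4 samples) had no tumour. The KP day 15 group (4 samples) and the KP day 30 group (3 samples) came from mice given KP or KP-GFP cells, a mouse lung adenocarcinoma line, through the tail vein. The labels give no age, and tumours seeded from the blood by 1 transplanted line stand for lung cancer here. The groups address how the open chromatin of resident macrophages differs between healthy lung and lung with an earlier or later tumour burden. Each group has 1 peak list for all its samples, so replicate error is unknown throughout, no test between conditions was possible, and the 95% Wilson intervals cover only counting error over regions. The lists hold 14731 naive, 10861 day 15 and 3352 day 30 peaks, from 39.2, 93.5 and 82.2 tags per 10 kb of genome as the peak caller counted them.

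Open chromatin away from gene ends commonly marks enhancers, stretches that transcription factors bind and that act on promoters over a distance. In macrophages the ETS factor PU.1 opens many of them together with C/EBP and AP-1 factors, and the signals of a tissue shape the set that is used. In the lung, GM-CSF and TGF-beta act through factors such as PPAR-gamma, BHLHE40, EGR2 and C/EBP-beta to give alveolar macrophages their identity, which includes the uptake and breakdown of surfactant lipid. A distal region can also be the start of a shorter transcript inside a longer gene, since the rule looks only at the outer ends of genes.

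That last kind was present. Of the 2865 selected regions on chromosomes covered by the table of RefSeq start windows (250 bases before and 50 after each start), 279 overlapped such a window, a share of 9.74% (95% Wilson interval, 8.71 to 10.9%). The share was 21.4% (18.4 to 24.7%) among distal regions called in all lists, 4.47% (3.79 to 5.26%) among distal regions called in the naive list only, and 72.1% (70.5 to 73.6%) among regions within 1000 bp of a gene end that were in the naive and day 15 lists only. In 257 of the 279 the naive summit, the base under the most tags, lay within 300 bp of the start, with a median distance of 59 bp. The day 15 peak itself overlapped the window in 268 of the 279. The sequences below are the bases before the start that lay under the naive peak at 6 of these internal starts, taken from RefSeq (GRCm38.p6, the mm10 build) and written 5′ to 3′ on the gene's strand. Tceanc (a transcription elongation factor domain protein), Rps6ka2 (a ribosomal S6 kinase) and Nr4a1 (an orphan nuclear receptor induced early after stimulation) were the first to hold a searched motif among the strongest regions and those near listed genes. Itgav (the integrin alpha V chain, which takes part in activating latent TGF-beta) and Rassf5 (a Ras effector of leukocyte adhesion) were chosen after their values were seen, because they hold the PU.1 letters, and Egr2 because it is the alveolar macrophage factor among them. Capitals mark a match on either strand to the letters searched for EGR factors (GTGGGCG, at Tceanc and Rps6ka2), CTCF (CNAGGNGGC, at Nr4a1), PU.1 and other ETS factors (AGGAAGT, at Itgav and Rassf5) and MAF factors (TGCTGAC, at Rassf5). The Egr2 stretch has no match to any motif searched.
Tceanc, chrX:166510479-166510684, minus strand: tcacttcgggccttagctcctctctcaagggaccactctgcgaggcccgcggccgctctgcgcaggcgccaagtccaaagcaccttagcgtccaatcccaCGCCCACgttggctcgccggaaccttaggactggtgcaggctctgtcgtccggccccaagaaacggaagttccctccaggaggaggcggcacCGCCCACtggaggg
Rps6ka2, chr17:7169865-7170114, plus strand: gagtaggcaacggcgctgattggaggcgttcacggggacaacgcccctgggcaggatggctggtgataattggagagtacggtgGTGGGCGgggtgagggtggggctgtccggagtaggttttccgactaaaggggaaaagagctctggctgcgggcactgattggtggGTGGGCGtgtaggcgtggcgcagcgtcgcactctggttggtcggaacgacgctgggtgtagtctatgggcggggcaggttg
Nr4a1, chr15:101266654-101266845, plus strand: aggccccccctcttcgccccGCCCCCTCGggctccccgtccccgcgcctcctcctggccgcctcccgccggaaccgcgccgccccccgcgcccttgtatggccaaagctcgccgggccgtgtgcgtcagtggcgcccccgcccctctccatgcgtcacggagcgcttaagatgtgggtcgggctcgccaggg
Itgav, chr2:83724147-83724396, plus strand: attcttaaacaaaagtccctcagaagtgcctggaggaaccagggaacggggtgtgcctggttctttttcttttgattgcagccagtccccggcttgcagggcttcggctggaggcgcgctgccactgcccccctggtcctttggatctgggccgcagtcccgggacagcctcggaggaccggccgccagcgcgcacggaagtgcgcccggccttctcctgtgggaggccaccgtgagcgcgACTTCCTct
Rassf5, chr1:131200186-131200376, minus strand: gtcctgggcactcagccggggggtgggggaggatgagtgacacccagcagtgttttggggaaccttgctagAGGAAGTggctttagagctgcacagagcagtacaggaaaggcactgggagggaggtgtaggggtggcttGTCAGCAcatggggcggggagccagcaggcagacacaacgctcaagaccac
Egr2, chr10:67537316-67537565, plus strand: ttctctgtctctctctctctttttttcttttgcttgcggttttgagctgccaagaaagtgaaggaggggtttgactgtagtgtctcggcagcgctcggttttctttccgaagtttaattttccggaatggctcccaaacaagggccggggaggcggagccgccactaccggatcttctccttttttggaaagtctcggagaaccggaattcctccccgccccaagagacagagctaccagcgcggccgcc

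The day 15 summit pileup, the number of overlapping tags at the summit, was 45 at the Rps6ka2 start, against 24 in the naive list, and it was the highest day 15 pileup of all the selected regions. In the region at the Egr2 start the pileup was 32 tags at day 15 and 25 tags in the naive list, at summits 342 bp apart. The naive peak covered the start, while the day 15 peak had its summit 247 bp past it and did not overlap the start window, so these values do not compare the same position. Egr2 encodes a zinc finger factor that alveolar macrophages need for their mature state, and this region, inside the gene, was the single selected region nearest to it. At the Tceanc start the pileup was 18 tags at day 15 and 32 in the naive list, at Nr4a1 21 and 23, at Itgav 18 and 28, and at Rassf5 22 and 25. At these starts and at Rps6ka2 both peaks overlapped the start window, with summits 3 to 52 bp apart except at Nr4a1, where they lay 160 bp apart. Among those 5 the day 15 pileup stood above the naive one at Rps6ka2 and below it at the other 4, before any allowance for the deeper day 15 list.

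The start windows of the selected regions had a higher GC content than the table as a whole, and so did those of the most similar classes. Their median GC content was 59.7%, against 63.3% in distal regions of all lists, 61.7% in boundary regions of the naive and day 15 lists and 52.7% over all 32851 windows of the table, and 74.2% of them (68.7 to 79.0%) had at least 55% GC, against 43.4% (42.9 to 43.9%) of all windows. The median number of CpG pairs was 20 per window, against 7 over all windows. The searched letters were looked for on both strands, and a match describes these letters only. The CTCF letters were in 39 of the 279 windows, against 8.38% of all windows and 13.4% of the windows at boundary regions of the naive and day 15 lists. The EGR letters were also in 39 of the 279 windows, against 7.97% of all windows and 16.4% of those boundary windows. For each motif the lower limit of the interval was 10.4%, above the share of all windows, and the boundary windows with the same peak calls were above it too. The PU.1 and ETS letters were in 12.2% (8.85 to 16.5%), against 9.35% of all windows and 9.86% of the boundary windows. The C/EBP letters (TTGCNNAA) were in 12.2% (8.85 to 16.5%), against 10.8% of all windows and 7.47% (6.47 to 8.60%) of the boundary windows. The C/EBP share was 10.6% (6.55 to 16.8%) at distal regions of all lists and 8.76% (5.08 to 14.7%) at naive-only ones. Both intervals overlapped that of the selected regions. The PU.1 and ETS share in these classes was 7.09% and 9.49%. The nuclear receptor letters (AGGTCA) were in 10.4% (7.33 to 14.5%), against 11.2% of the boundary windows, 19.9% (14.1 to 27.2%) of the windows at distal regions of all lists and 16.3% of all windows. The AP-1 letters (TGANTCA) were in 4.66% (2.74 to 7.81%), against 4.01% of the boundary windows, 9.93% at distal regions of all lists and 7.81% of all windows. For both motifs the share was close to that of the boundary windows with the same calls. All windows differ in base composition from the 279, and the AP-1 interval just reached their share. The overlap of these motifs with each other was not removed, and sequence around the other selected regions was not analysed here.

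Over the 2952 selected regions the day 15 pileup ranged from 10 to 45 tags with a median of 18 and quartiles of 15 and 21. The naive pileup ranged from 6 to 51 tags with a median of 16 and quartiles of 12 and 20. The median of the authors' fold over the local background was 5.33 at day 15 and 6.88 in the naive list. These values chose the regions in part, since both had to be called, and are given as a description. The summits of both lists lay close together, at a median of 39 bp and within 50 bp in 57.8% of regions (56.0 to 59.6%). Across the regions the day 15 and naive pileups had a Spearman correlation of 0.554 (n = 2952 regions, 1 list each), which both lists' call thresholds and shared base composition affect.

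**Figure D1:**
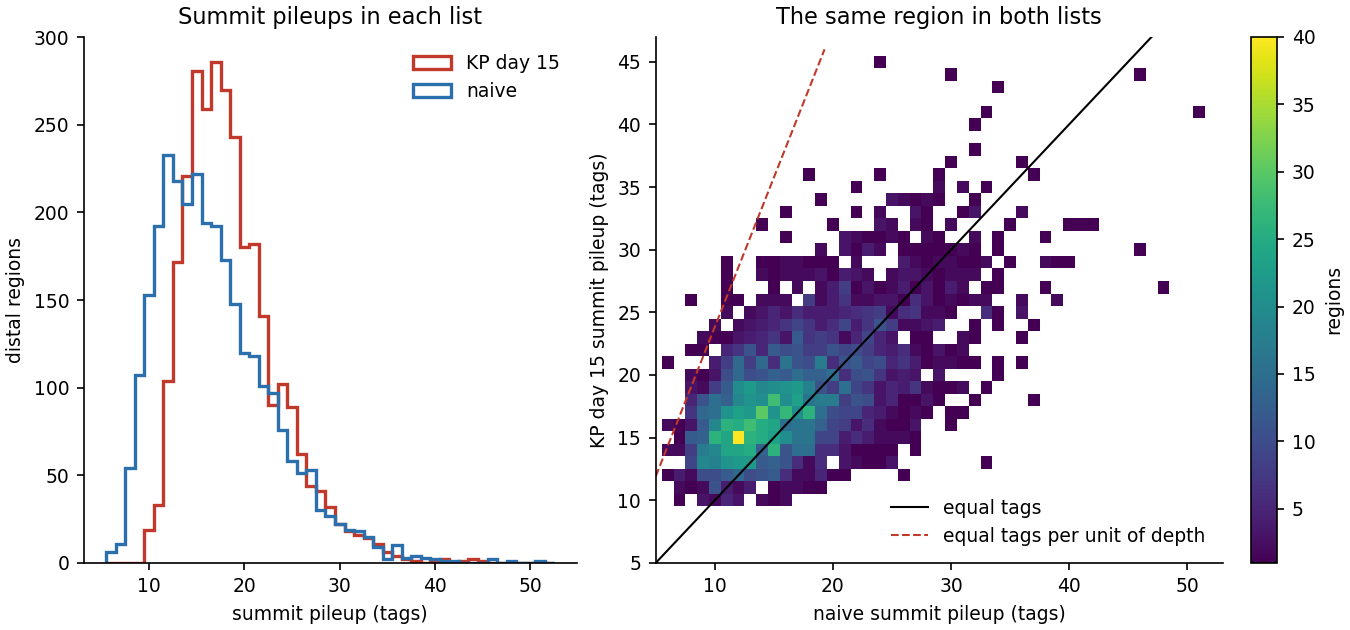
Left, number of distal regions at each summit pileup (tags) in the KP day 15 list (red) and the naive list (blue). Right, day 15 against naive pileup of the same 2952 regions, coloured by the number of regions, with a solid line at equal tags and a dashed line at equal tags per unit of depth. The day 15 pileups have a median of 18 tags and the naive ones of 16, and nearly all regions lie below the dashed line.

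The day 15 list is 2.38 times as deep as the naive list. Per unit of depth the day 15 pileup was lower than the naive pileup at nearly all selected regions, with a median ratio of 0.472, quartiles of 0.391 and 0.577 and a range of 0.165 to 1.47. Without allowance for depth the median ratio was 1.125, so the direction rests on the depth recovered from the lists. Depth is read from the commonest background of each list, so a difference in background between whole lists also enters the ratio. Whether the ratio reflects opening at these regions was not tested. In pooled cells, fewer cells with a region open and less opening per cell cannot be told apart. A ratio above 1 was found at 15 of the 2952 regions, or 0.508% (0.308 to 0.837%), against 0.439% of all 9335 regions in the naive and day 15 lists, which is the background. In raw tags the day 15 pileup was the higher one at 1850 of the 2952, or 62.7% (60.9 to 64.4%), against 56.1% of all 9335. The median ratio was 0.430 at distal regions called in all lists and 0.464 at boundary regions of the naive and day 15 lists. The ratio was lower at higher naive pileups in each class, a trend built into the measure, since the naive pileup is its denominator and every region had to pass the day 15 call. At a naive pileup of 11 to 14 tags its median was 0.544 in the selected regions (848 regions), 0.599 in distal regions of all lists (57) and 0.559 in boundary regions of the naive and day 15 lists (839). At 23 to 30 tags it was 0.380 in the selected regions (414), 0.406 in distal regions of all lists (218) and 0.384 in those boundary regions (628). At matched naive pileup the selected regions thus lay close to boundary regions with the same calls.

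**Figure D2:**
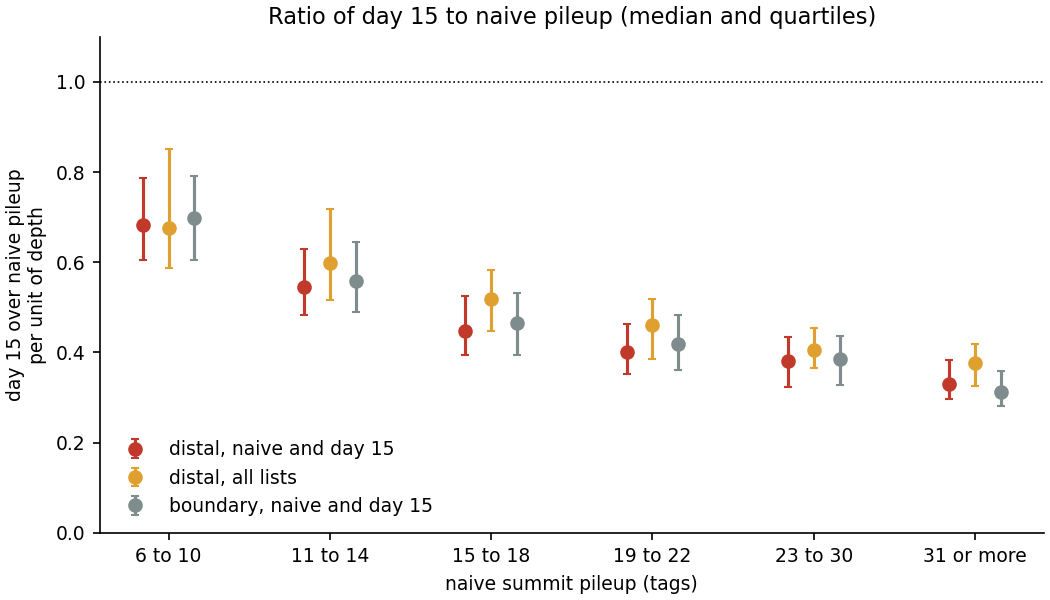
Ratio of day 15 to naive summit pileup per unit of depth (median, with bars from the lower to the upper quartile of regions) by naive summit pileup in tags, for the selected distal regions (red), distal regions in all lists (yellow) and boundary regions in the naive and day 15 lists (grey). The medians of the selected regions run down to 0.331 at 31 tags or more, and every median lies under the dotted line at 1.

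The selection left out regions with a day 30 peak, and how many it left out differed with position. Of the 6856 distal regions in the naive list, 43.1% had a day 15 peak and no day 30 peak. Of the 3637 distal regions in both the naive and the day 15 list, 81.2% had no day 30 peak (79.9 to 82.4%), against 58.4% (57.1 to 59.7%) of the 5698 boundary regions in both lists and 67.3% of all 9335 such regions. Distal peaks were weaker at day 15, with a median pileup of 19 tags, against 22 tags at boundaries. In each of 8 equal groups of regions by day 15 −log10 p, the share without a day 30 peak was higher among distal than among boundary regions. In the group from 16.8 to 21.5 it was 57.5% of 313 distal regions (52.0 to 62.9%) and 38.1% of 854 boundary regions (34.9 to 41.4%). Weighted to the strengths of the distal regions, the boundary share was 71.05%, a difference of 10.1 percentage points, against 22.8 without weighting. Position and the absence of a day 30 peak both belong to the rule, so these differences are a description, and what accounts for them was not tested. Distal regions on a RefSeq start window stood nearer to boundary regions. Among distal regions on no start window, 83.3% of 3104 lacked a day 30 peak (82.0 to 84.6%), against 66.4% of 420 (61.8 to 70.8%) on a start window, a difference of 16.9 percentage points and of 9.11 at equal day 15 strength. Within each of the 8 groups by strength the intervals off and on a start window overlapped. By distance from the gene end the share was 73.8% at 1000 to 2000 bp (341 of 462 regions), 80.3% at 2000 to 5000 bp (586 of 730), 83.4% at 5000 to 10000 bp (641 of 769), 82.4% from 10000 to 50000 bp (1131 of 1373) and 83.5% farther away (253 of 303). Beyond 2000 bp the intervals of these shares overlapped.

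**Figure D3:**
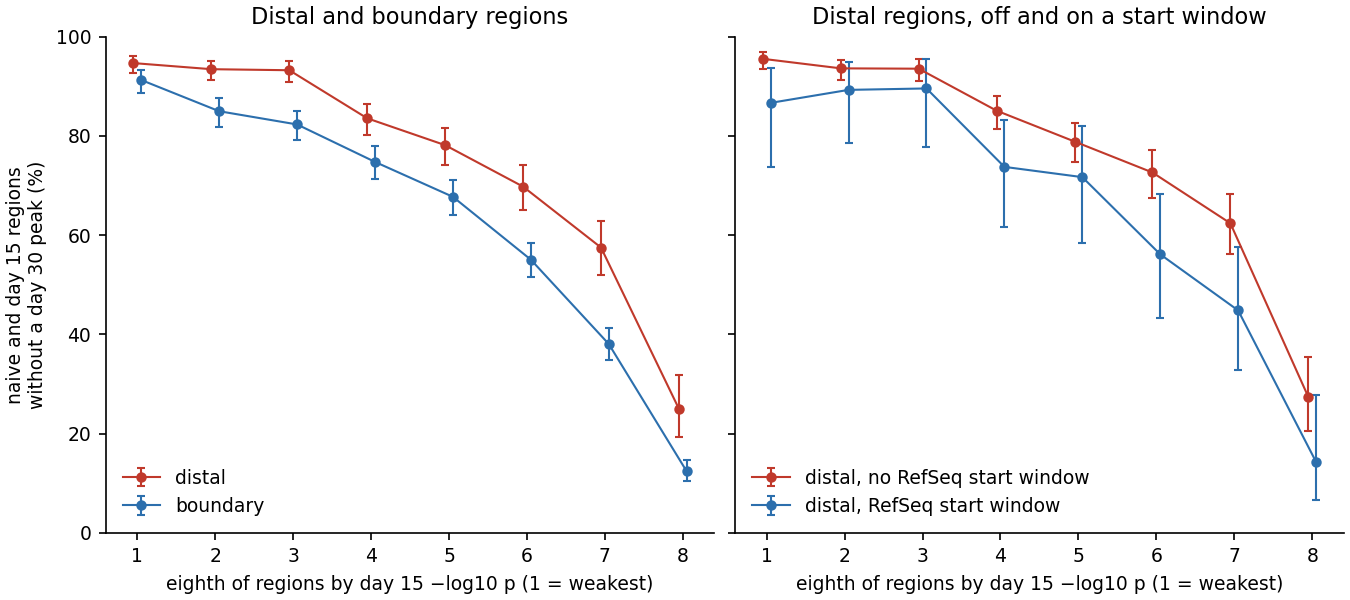
Percent of regions in the naive and day 15 lists without a day 30 peak, by eighth of regions ranked on day 15 −log10 p, with 95% Wilson intervals as bars. Left, distal (red) and boundary (blue) regions. Right, distal regions on no RefSeq start window (red) and on one (blue). The share falls with strength, except that on a start window it goes from 86.7% to 89.6% over groups 1 to 3 before falling. It is higher in red in all 8 groups of both panels. In the strongest group it is 25.0% of distal and 12.4% of boundary regions. In the right panel, with 42 to 61 regions on a start window per group, the intervals overlap in all 8 groups.

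The day 30 list is short, and that bears on what an absent peak means. Its depth is 0.879 times that of the day 15 list. Scaled to that depth, the day 15 peaks of 99.1% of the selected regions (98.7 to 99.4%) would reach the lowest −log10 p of the day 30 list. They would reach the median −log10 p of that list at 31.2% of the selected regions (29.6 to 32.9%). Among distal regions in all lists these shares were 99.85% and 74.0% (70.6 to 77.2%). Those regions had to pass the day 30 call. Per unit of depth their day 30 pileup was a median of 0.739 times the day 15 one, with quartiles of 0.6355 and 0.8845. With each list cut to its 3352 strongest peaks, 204 regions met the rule, 23.7% of the distal naive regions. The number selected therefore depends strongly on the length of the lists, and a closed region cannot be told apart here from one whose signal stayed under the threshold of the day 30 list. In those shortened lists the distal share without a day 30 peak was 10.5 percentage points above the boundary share at equal strength. The nearest day 30 peak lay a median of 117922 bp from a selected region, and 264 regions (8.94%, 7.97 to 10.0%) had one within 10000 bp.

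The selected regions covered 1173 kb. They lay a median of 9084 bp from the nearest gene end, with quartiles of 3968 and 20906 bp and a range of 1003 to 286961 bp. Inside a gene lay 68.6% of them (66.9 to 70.2%), against 72.0% (68.5 to 75.2%) of distal regions in all lists and 66.4% (64.7 to 68.0%) of distal naive-only regions. Exons and introns are not told apart in the annotation used. At the limit of the rule, the 74 regions from 1003 to 1199 bp had median pileups of 19 tags at day 15 and 18 in the naive list, and the 90 regions from 809 to 1000 bp, just left out, had 20 and 17. For 2296 regions (77.8%) a protein-coding gene ended within 50 kb, and the nearest ones belonged to 1832 genes. A nearest gene is a matter of position and need not be the gene a region acts on. Most of these genes, 1484, had 1 selected region, 259 had 2, 69 had 3, 13 had 4 and 7 had 5. Grouped with gaps of up to 10000 bp, 469 regions (15.9%) fell into 217 groups of 2 or more, and 5 groups held 4. The groups of 4 were nearest to Septin9, Arid1b, Ralgds, Mcl1 and Notch2. Septin9 encodes a cytoskeletal GTPase, Arid1b a subunit of the BAF chromatin remodeller, Mcl1 a survival factor of the BCL2 family and Notch2 a Notch receptor.

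The 7 genes nearest to 5 selected regions were App, B4galt5, Cd36, Marco, Prr5l, Runx1 and Septin9, and the next 5, with 4 each and taken in alphabetical order among ties, were Cd83, Chd7, Hpcal1, Irf2bp2 and Mcl1. They were chosen for their number of selected regions, so high shares of selected regions near them follow from the choice. Over all distal naive regions the share selected was 43.1%. Marco encodes a scavenger receptor that binds bacteria and particles and is a defining surface protein of alveolar macrophages. Its 5 regions had day 15 pileups of 12, 12, 18, 18 and 22 tags, against naive pileups of 14, 11, 11, 20 and 20 tags in the same order along the chromosome. The 3 at 12.6, 19.1 and 27.4 kb from the gene lay before its start, and those at 24.6 and 44.0 kb lay beyond its other end. The values overlapped between the lists, and per unit of depth all 5 were lower at day 15, with ratios of 0.360 to 0.686. Marco itself had no boundary peak in any list, and 2 further distal regions near it were in the naive list only. Cd36 encodes a receptor for fatty acids and oxidised lipoprotein that macrophages use in lipid uptake. All 5 distal naive regions nearest to it were selected, with day 15 pileups of 16, 21, 24, 15 and 24 tags and naive pileups of 11, 13, 16, 12 and 23 tags. In raw tags each of the 5 was higher at day 15, and per unit of depth each was lower, with ratios of 0.438 to 0.678. A sixth selected region inside Cd36, with 16 tags at day 15 and 14 in the naive list, lay over 50 kb from either end, at an internal start. B4galt5 encodes a galactosyltransferase of glycosphingolipid synthesis, and of its 6 distal naive regions 5 were selected, with 16 to 25 tags at day 15 and 11 to 19 in the naive list. Its boundary region, just before its start, likewise had day 15 and naive peaks (19 and 17 tags) and no day 30 peak. Of all boundary regions in the naive and day 15 lists, 58.4% had no day 30 peak. Runx1 encodes a factor of blood cell development, and of 8 distal naive regions 5 were selected and 3 were naive-only. App encodes the amyloid precursor protein, and Prr5l a component of the mTORC2 kinase complex, and their selected regions, like those of Septin9, lay inside the genes. Among the genes with 4, all distal naive regions of Chd7 (a chromatin remodeller), Hpcal1 (a calcium sensor) and Mcl1 were selected. Cd83, a surface protein of activated antigen-presenting cells, had 1 further region, in the naive and day 30 lists, and Irf2bp2, a transcriptional repressor, had 1 in all lists.

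**Figure D4:**
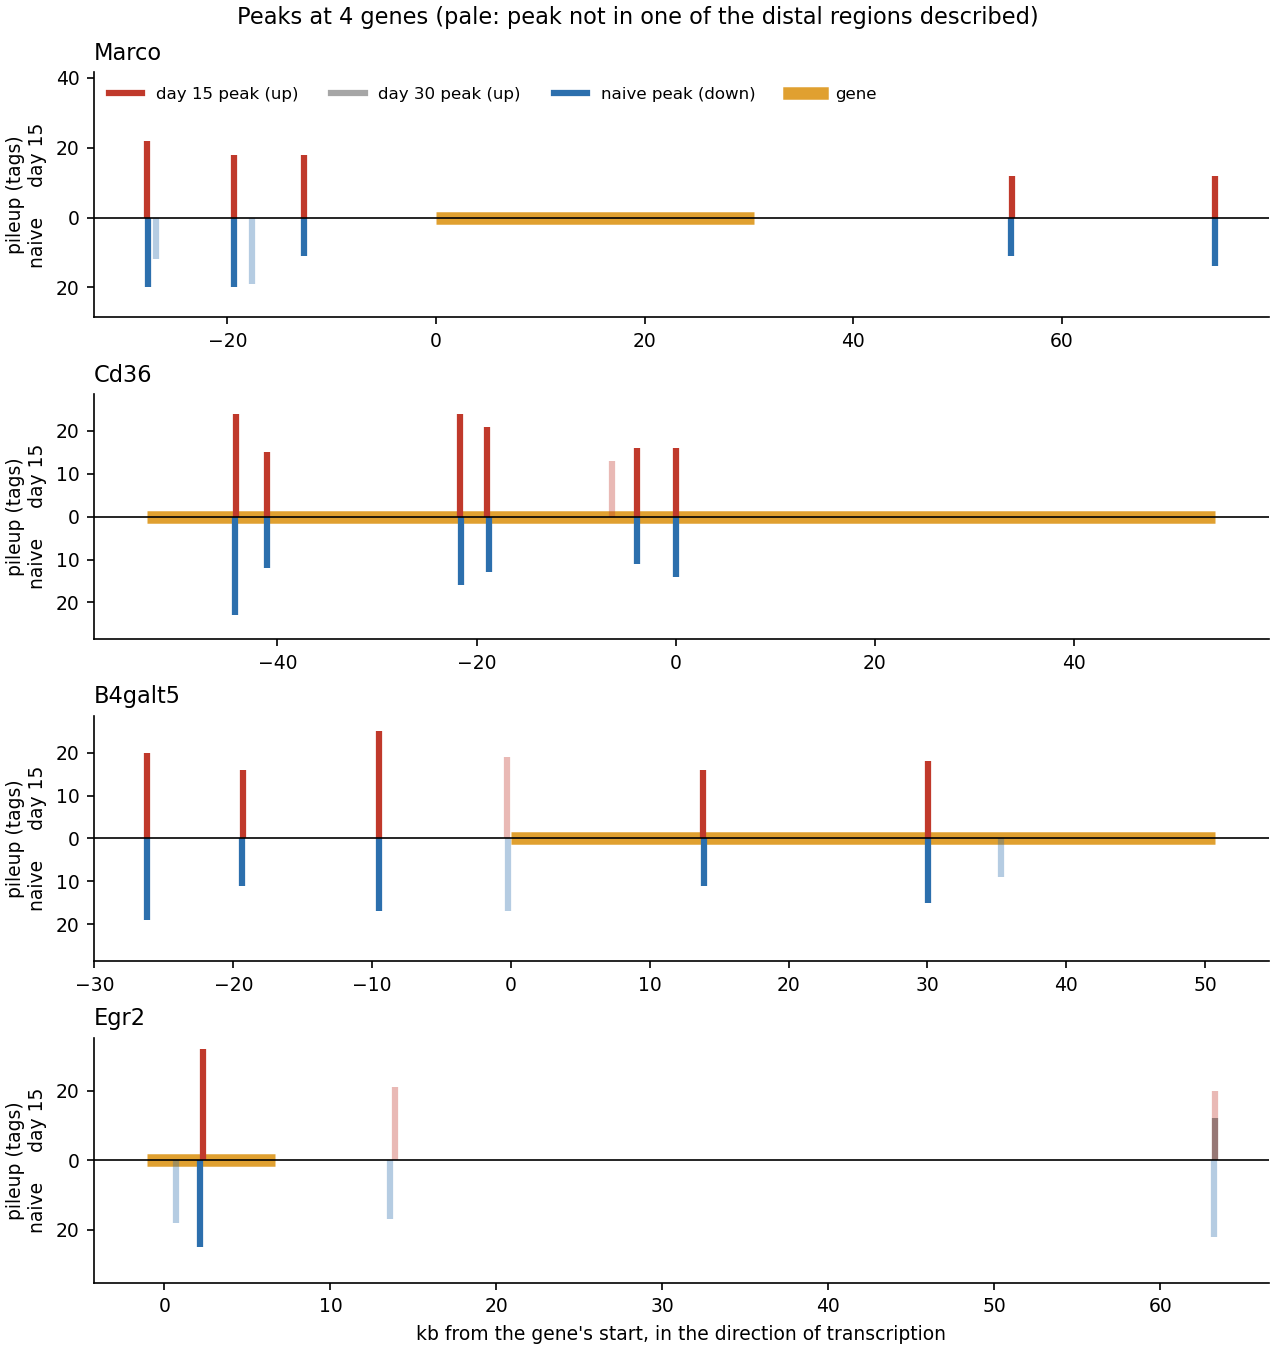
Summit pileups (tags) of peaks at Marco, Cd36, B4galt5 and Egr2 by distance in kb from the gene's most upstream start in the table of RefSeq start windows. At Cd36 and Egr2 this start lies inside the gene and not at its outer end. Day 15 peaks are drawn up in red, naive peaks down in blue, the single day 30 peak in grey and the gene as a yellow bar. Full colour marks the selected distal regions, which at Marco flank the gene and at Cd36 lie within it, and pale colour marks other peaks.

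Genes that mark alveolar macrophages had 29 of the selected regions nearest to them. Of the 51 distal naive regions nearest to 1 of 35 listed genes, these 29 lay at 19 genes, a share of 56.9% (43.3 to 69.5%), against the 43.1% of all distal naive regions. Another 18 were in the naive list only and 4 in all lists. The lower limit of the interval lay just above the share of all distal naive regions. The gene list was chosen with earlier results of these data known. Regions near the same gene, such as the 5 at Marco, were counted as if independent, so no excess is read from this share. These 29 regions had day 15 pileups of 12 to 32 tags with a median of 18, against naive pileups of 8 to 34 tags with a median of 14, and their median ratio per unit of depth was 0.461, against 0.472 over all selected regions. Boundary peaks, within 1000 bp of either gene end, were present at 17 of the 35 genes in the naive list, at 13 on day 15 and at 2 on day 30. Over all protein-coding genes, 34.7% had one in the naive list, 29.6% on day 15 and 12.8% on day 30.

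Regulators of the cell type come first. Bhlhe40, a repressor that supports the self-renewal of these cells, had 3 regions between 21.5 and 29.0 kb from the gene, with 19, 14 and 20 tags at day 15 and 8, 13 and 19 in the naive list. The first of them, chr6:108688389-108688744, had the highest ratio of the 29 at 0.996. Klf4, a factor of monocyte and macrophage differentiation, had 1 region 11.9 kb away with 14 tags at day 15 and 17 in the naive list. Tgfbr2, the TGF-beta type II receptor through which the niche signals, had 2 regions inside the gene with 16 and 13 tags at day 15 and 10 and 15 in the naive list. Csf2ra, the alpha chain of the GM-CSF receptor, had 1 region 36.9 kb away with 22 tags at day 15 and 12 in the naive list. Pparg, the lipid-sensing receptor downstream of GM-CSF, had no selected region, and its 1 distal region was in all lists. Cebpb likewise had none within 50 kb, with 1 region in all lists and 2 in the naive list only.

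Among surface and uptake genes, Mrc1, the mannose receptor, had 1 region inside the gene with 21 tags at day 15 and 12 in the naive list. Olr1, a receptor for oxidised lipoprotein, had 19 and 18 tags at its single region. Plet1, a surface protein of these cells, had 2 regions with 17 and 16 tags at day 15 and 12 and 9 in the naive list. At Flt1, a VEGF receptor, the region chr5:147748005-147748434 had 30 tags at day 15 and 19 in the naive list. Siglecf and Car4, both used to recognise the cell type, had neither a distal naive region nor a boundary peak in any list.

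Lipid handling genes of the list included Abcg1, a cholesterol exporter, with 24 and 21 tags at day 15 and 34 and 16 in the naive list at 2 regions 18.8 and 16.9 kb away. The first of these had the lowest ratio of the 29, at 0.296, while its neighbour nearer to the gene stood at 0.551. Fabp1, a fatty acid binding protein, had 18 and 17 tags at day 15 and 14 and 23 in the naive list. Fabp4 had no distal naive region within the limit and no boundary peak, and Fabp5 had 1 distal region, in the naive list only. The other listed genes with a selected region, each with 1, were Ear1 and Ear2 (ribonucleases), Krt19, Atp6v0d2 (a proton pump subunit), Slc7a2 (an arginine transporter), Spp1 (osteopontin) and Perp, with day 15 pileups of 13 to 23 tags and naive pileups of 10 to 20 tags.

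**Figure D5:**
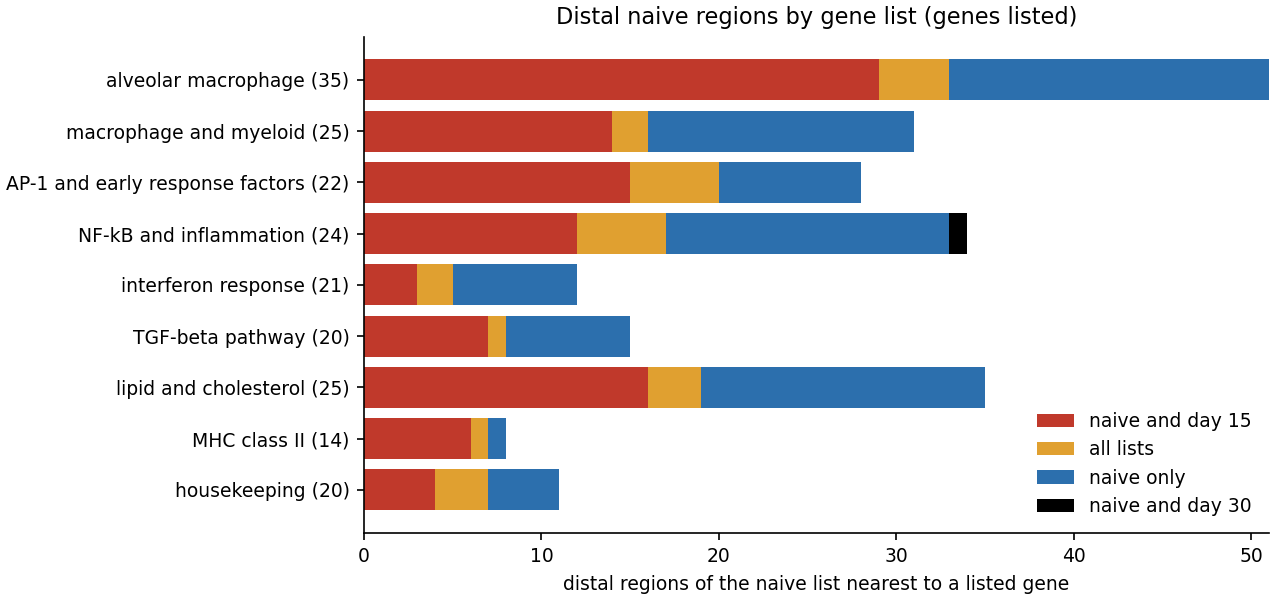
Number of distal regions of the naive list whose nearest protein-coding gene within 50 kb is in each gene list, split by the lists that call them, with the selected naive and day 15 regions in red, all lists in yellow, naive only in blue and naive and day 30 in black. The alveolar macrophage list, the longest with 35 genes, has the most, 29 selected of 51, and the MHC class II list has 6 of 8. Over all distal naive regions 43.1% are selected, and no excess is read from these counts.

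The other gene lists held selected regions in shares whose intervals all include the 43.1% of all distal naive regions. For MHC class II genes 6 of 8 distal naive regions were selected, at 6 genes (95% interval of the share, 40.9 to 92.9%). The strongest was inside H2-DMa, which encodes a chaperone chain that loads peptide onto class II molecules, at chr17:34135327-34135801. It had 40 tags at day 15 and 32 in the naive list, its summits lay 3 bp apart, and it was among the 10 strongest selected regions in both lists. H2-Oa, H2-Ab1, H2-Aa and H2-Eb2 had 18, 13, 10 and 14 tags at day 15 and 9, 13, 11 and 16 in the naive list. Ciita, the master activator of class II genes, had a region inside the gene with 16 tags at day 15 and 14 in the naive list. Naive boundary peaks stood at 6 of the 14 listed class II genes, with 9 on day 15 and 2 on day 30, against 34.7%, 29.6% and 12.8% of all protein-coding genes.

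Of the early response factors, the AP-1, EGR, NR4A and KLF genes switched on soon after stimulation, 15 of 28 distal naive regions were selected (53.6%, 35.8 to 70.5%), at 10 genes. Atf3 and Nr4a1 had 3 each and Fos had 2. At Nr4a1 the 3 regions had 28, 26 and 21 tags at day 15 and 27, 23 and 23 in the naive list. At Atf3 they had 19, 21 and 18 tags at day 15 and 13, 17 and 14 in the naive list. At Fos they had 20 and 20 tags at day 15 and 26 and 15 in the naive list. Of the 22 genes, 15 had a naive boundary peak, 13 a day 15 one and 10 a day 30 one, against the same 34.7%, 29.6% and 12.8% of all protein-coding genes. Of the 10 genes with a selected region, Fos, Atf3, Klf6 and Ier5 had a day 30 boundary peak. Batf, Egr1, Egr2, Nr4a1, Klf4 and Ier3 had none. Over all genes nearest to a selected region, 16.3% had one.

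For NF-kB and inflammation genes 12 of 34 were selected (35.3%, 21.5 to 52.1%), at 8 genes. Il1b, the cytokine interleukin 1 beta, had 3 of 3, with 25, 16 and 25 tags at day 15 and 24, 12 and 15 in the naive list. Nfkbia and Tnfaip3, both feedback inhibitors of NF-kB, had 2 each, with 14 to 18 tags at day 15 and 10 to 15 in the naive list. Tlr2, a receptor for bacterial lipoprotein, had 26 tags at day 15 and 27 in the naive list. Ccl2, Ccl3, Nfkbiz and Tlr4 had 1 each, with 11 to 14 tags at day 15 and 9 to 15 in the naive list. For the interferon response 3 of 12 were selected (25.0%, 8.89 to 53.2%), near Irf1, Irf2 and Socs1. The lipid and cholesterol list had 16 of 35 (45.7%, 30.5 to 61.8%) at 8 genes. Abca1, a cholesterol exporter, had 3 of these, with 24, 12 and 19 tags at day 15 and 28, 16 and 16 in the naive list. Rxra, the partner of PPAR-gamma and LXR receptors, had 33 tags at day 15 and 27 in the naive list, and Soat1, which esterifies cholesterol, had 12 and 15 tags at day 15 and 9 and 20 in the naive list. The TGF-beta list had 7 of 15 (46.7%, 24.8 to 69.9%), and its strongest were near Tgfb1, the ligand, with 29 tags at day 15 and 40 in the naive list, and near Tgif1 and Ski, both repressors of SMAD signalling, with up to 30 and 28 tags at day 15 and up to 28 and 21 in the naive list. The macrophage list had 14 of 31 (45.2%, 29.2 to 62.2%) at 7 genes. Besides Cd36 these included Tfec, a factor of the MiT family, with 19, 17 and 15 tags at day 15 and 15, 17 and 18 in the naive list. Msr1, a scavenger receptor, had 21 and 16 tags at day 15 and 16 and 11 in the naive list, and Csf1r, the receptor of the macrophage growth factor, had 19 and 21 tags. The housekeeping list had 4 of 11 (36.4%, 15.2 to 64.6%), 3 of them nearest to Actb.

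Markers of other cells had few distal naive regions nearest to them, and where a list had any, the interval of the share selected included the 43.1% of all distal naive regions. The T cell list had 1 selected of 2 distal naive regions, near Cd2, with 15 tags at day 15 and 24 in the naive list. The B cell and neutrophil lists had no distal naive region, and the 1 of the fibroblast list was in the naive list only. Cx3cr1, a chemokine receptor of monocytes and interstitial macrophages, had the 2 selected of the 4 distal naive regions of its list, with 20 and 14 tags at day 15 and 11 and 13 in the naive list. Epcam and Cdh1, adhesion proteins of epithelium, had 1 each of the 4 of their list, with 18 and 24 tags at day 15 and 20 and 14 in the naive list, and Pecam1, an endothelial adhesion protein that leukocytes also carry, had the 1 region of the endothelial list, with 23 tags at day 15 and 15 in the naive list. Boundary peaks were present in the naive and day 15 lists at 2 of 8 T cell genes (Cd3d and Cd2), at 2 of 8 neutrophil genes (S100a8 and Mmp8) and at 1 of 10 genes of monocyte-derived and interstitial macrophages (Maf), and S100a8 had one at day 30 too. The 12 epithelial, 8 endothelial, 7 B cell and 6 fibroblast genes had none in any list. Whether other cells contributed to the selected regions was not tested.

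The 10 selected regions with the highest naive −log10 p were nearest to Snapc3, Rgmb, H2-DMa, Lca5, Tceanc, Gm17266, 4930503L19Rik, Tnni3k, Tstd3 and Gask1b. They had 18 to 40 tags at day 15 and 32 to 48 in the naive list, and 4 of them, at Snapc3, Rgmb, Lca5 and Tceanc, lay on an internal start. At Rgmb, which encodes a BMP co-receptor, the region chr17:15826062-15826853 had 27 tags at day 15 and 48 in the naive list. The 10 with the highest day 15 −log10 p were nearest to H2-DMa, Tmem131l, Rps6ka2, Bach2, Rpusd4, Alkbh8, Pde1a, Arhgap15, Ccdc15 and Frg1, with 31 to 45 tags at day 15 and 18 to 36 in the naive list. Bach2, a repressor that restrains the activation of immune cells, had 44 tags at day 15 and 30 in the naive list at chr4:32249942-32251371, where the summits lay 723 bp apart. H2-DMa was the only region in both sets of 10. No distance limit was set for the nearest gene of these strongest regions. The Alkbh8 region, chr9:3023385-3023669, lay between genes and 312 kb from Alkbh8. Those of Pde1a and Rps6ka2 lay inside these genes, 116 and 80.7 kb from an end. The Frg1 region lay inside Asah1 and the Tstd3 region inside Ccnc.

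The 10 regions with the highest ratio of day 15 to naive pileup were chosen on that ratio, and their naive pileups were low. They were nearest to Wipf1, Bcl6, Ifnar2, Mef2c, Ubl3, Atp8b4, Cdkn1a, Irak2, Tmcc3 and Myd88, and had 16 to 29 tags at day 15, against 6 to 11 tags in the naive list. At Wipf1, which encodes a partner of the WASP actin regulator, 21 tags at day 15 stood against 6 in the naive list, a ratio of 1.47 per unit of depth. Near Myd88, the adaptor of Toll-like and interleukin 1 receptors, the counts were 20 and 8, and inside Irak2, a kinase of the same pathway, they were 23 and 9. Ifnar2, a chain of the type I interferon receptor, had 22 and 8 tags, and Cdkn1a, the cell cycle inhibitor p21, had 23 and 9. The Bcl6 and Mef2c regions lay between genes, 114 and 554 kb from the named gene. The 10 with the lowest ratio were nearest to Arhgap18, Cav1, Ctnnd2, Zfhx3, Lingo2, Tbc1d31, Tigit, Jdp2, Sh3bp4 and Zfp788, with 12 to 18 tags at day 15, against 24 to 37 tags in the naive list. Inside Arhgap18, 13 tags at day 15 stood against 33 in the naive list, a ratio of 0.165, and at an internal start of Cav1, the main protein of caveolae, 12 stood against 26. In these 10 the ranges of both lists did not overlap, as the choice by ratio makes likely. The Ctnnd2, Lingo2 and Zfhx3 regions lay inside these genes, 418, 317 and 238 kb from an end. The Tigit region lay 177 kb from Tigit, inside Zbtb20, and the Sh3bp4 region 80.2 kb from Sh3bp4.

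The ends of the genes nearest to selected regions were open more often than those of all protein-coding genes. A peak within 1000 bp of either end was found for 47.5% of the 1832 genes in the naive list (45.2 to 49.8%), 39.8% at day 15 (37.6 to 42.1%) and 16.3% at day 30 (14.7 to 18.1%), against 34.7%, 29.6% and 12.8% of all 21883 protein-coding genes. Genes nearest to a distal naive-only region and to no selected one had much the same shares, with 46.5%, 38.6% and 17.4%. Of the 675 genes nearest to a selected region that had a boundary peak in both the naive and the day 15 list, 42.4% (38.7 to 46.1%) had one at day 30, against 44.9% (43.6 to 46.1%) of all 6039 such genes. The intervals of these shares overlapped, so no difference at the ends of the nearest genes was detectable in these counts.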

How the data were processed

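Open chromatin was measured by ATAC-seq in 11 samples of sorted alveolar macrophages, and each of the 3 groups has 1 deposited peak list. The submitters' processing notes name Bowtie2 (2.3.4.1), MACS2 (2.1.1) and the build mm10, without settings. Pooling before calling, read filters and any shift of cut sites are not given in the sources used here. Samples number 4, 4 and 3 by label, although the series design mentions triplicates. Column meanings were read from the values. For each peak the authors deposited a score, a fold over local background (a ratio), a −log10 p-value and a −log10 q-value.

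Each peak's summit pileup and background were derived from its fold, read as pileup plus 1 over background plus 1, and from the p-value, read as a Poisson tail. The commonest background gave the tags per 10 kb. The recovery, merging and distances were tested on simulated data. The main results used all deposited peaks, with no filter for regions prone to artefact signal. Peaks sharing at least 1 bp were merged, and distances were taken to the 49976 genes of a RefSeq table (GRCm38.p6, the mm10 build). Start windows came from a RefSeq table of 32851 windows that does not cover every chromosome, and shares on it count only the chromosomes it covers. Equal strength means 8 equal groups of regions by day 15 −log10 p, with boundary or start window shares weighted to the distal counts. Intervals are 95% Wilson intervals. Python 3.11.15, pandas 2.3.3 and SciPy 1.17.1 were used.

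Named genes were the 10 strongest regions of each list, the 10 highest and 10 lowest ratios, the listed genes (alveolar macrophage list in full, up to 8 of each other list by naive −log10 p), and the 12 genes with the most regions. The regions, gene lists and motifs were chosen with earlier results of these data known. The 10000 bp gap for grouping neighbouring regions was set after the groups under a somewhat wider gap had been seen. Of the interferon list, 2 entries, Mx1 and Mx2, had no match. The planned search for PU.1 letters around every naive summit was not run, since no genome sequence was used.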

Additional observations from a re-analysis of the deposited data

How the results depend on the processing

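No paired analysis was possible because each group has 1 peak list for all its samples, and for the same reason no sample could be left out. Of 69 values under alternative settings, 57 stayed within a set limit and 12 moved. The limit was 1.5 times for counts and the 95% interval for other shares and medians. For the comparisons at equal strength it was the 95% margin of a single share, distal or on a start window. No interval of those differences was computed. The comparisons at equal strength, their alternatives included, were chosen after seeing the data.

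With each list cut to its 3352 strongest peaks, 204 regions met the rule, 23.7% of distal naive regions, with a median ratio of 0.406 and a start window difference of 14.9 percentage points. Without weighting for strength the differences were 22.8 points between distal and boundary regions and 16.9 between regions off and on a start window. The median ratio was 1.125 without depth scaling and 0.447 with local background subtracted. The median distance was 10912 bp with a limit of 2000 bp, 15250 bp with 5000 bp and 16640 bp with protein-coding genes only, where 58.7% of regions lay inside a gene. By their construction these limits and genes change the distance. The cause of the other moves was not tested. Over all alternatives with a weighting, the distal share stayed 9.29 to 10.8 points above the boundary share. The difference between regions off and on a start window, 9.11 points, ranged from 6.31 points with peak width in place of −log10 p, where it was higher off the window in 6 of 8 groups, to 14.9. The number of regions near alveolar macrophage genes was 29 to 40. Pileups of 6 to 51 tags limit the precision of single regions.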
